A study of Mus musculus with 18 samples.

Results

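Translation initiation factors and the proteins that hold them in check were followed in the brains of mice lacking Aldh5a1, which encodes the mitochondrial enzyme for the last step of GABA breakdown. The members were all probe sets (groups of array probes for a transcript) whose only annotated symbol begins with Eif and a digit, without Eif1ay, Eif2s3x and Eif2s3y. They numbered 55 of the 12488 probe sets on the array and stood for 39 of the 8252 genes named by a single symbol. Of these, 42 probe sets of 34 genes were bright enough to be tested.

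The study put hippocampus, cerebellum and cortex of 3 Aldh5a1-/- mice (KO) and 3 wild-type mice (WT) on 18 Affymetrix arrays, 1 array per animal and region. The groups were thus KO and WT of each region, with 3 animals each, and the 3 regions came from the same 6 animals. The label gives the deletion as the animals' genotype and names no Cre or transgene, while age, sex, strain and treatment are not given in the sources used here. Signals are listed below in the order of KO animals 3363, 3389 and 3403 and of WT animals 3405, 3406 and 3396.

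Initiation brings the small ribosomal subunit, the initiator methionyl-tRNA and an mRNA together. eIF2 delivers the initiator tRNA and is reloaded with GTP by eIF2B, and the kinases HRI, PKR, PERK and GCN2 block that reloading by phosphorylating the alpha subunit of eIF2, which lowers general translation and favours that of the transcription factor ATF4. eIF4F, made of the cap-binding protein eIF4E, the scaffold eIF4G and the helicase eIF4A, brings the ribosome to the capped mRNA, and 4E-binding proteins compete with the scaffold for eIF4E until mTORC1 phosphorylates them. In brain, this step sets local protein synthesis at synapses, 4E-BP2 is the main 4E-binding protein of neurons, and inherited loss of eIF2B function damages white matter.

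The signal is a linear intensity that the authors scaled to a common level, with an array median of 53.5 to 64.8. It ranks samples within a probe set but does not compare probe sets with each other. All 18 arrays lay nearest to the other arrays of their named region, and fixed region markers were highest in their own WT region for 8 of 8 cerebellar, 4 of 5 hippocampal (Tdo2 excepted) and 3 of 3 cortical genes. Oligodendrocyte markers moved with genotype in the forebrain regions: all 7 tested markers were below WT in KO hippocampus, with a summed signal of 4060 to 5178 against 5989 to 9205, and in KO cortex, with 3450 to 4290 against 6481 to 8380. In cerebellum 5 of the 7 were below WT and the sums were closer, 7543 to 8074 against 8146 to 9359, but did not overlap. Of the 7 markers limma called 2 in hippocampus, 5 in cortex and 0 in cerebellum, against 0.119%, 0.286% and 0.0358% of all probe sets. The 6 microglial markers were all above WT in KO hippocampus and cortex, with medians of 0.17 and 0.26 on the log2 scale and 0 past the limma test. In cerebellum, 5 of 5 tested neuron markers were below WT in KO, with a median of -0.13 on the log2 scale. Their sums of 5545 to 5951 against 6140 to 7151 did not overlap. Of the same 5, 1 lay above WT in KO hippocampus and 2 in KO cortex, with medians of -0.12 and -0.22. These sums overlapped, at 7058 to 7577 against 7069 to 8102 in hippocampus and 7875 to 8551 against 8412 to 9320 in cortex. All 3 choroid plexus markers were above WT in KO cerebellum, with a median of 1.76. Their sums of 338 to 1469 against 51.3 to 1275 overlapped. Of either list limma called 0. In cortex the ratio of 3 prime to 5 prime Gapdh signal, a sign of RNA integrity, was 0.804 ± 0.00773 in KO and 0.902 ± 0.0202 in WT (SD, n = 3) without overlap, while the same ratio of actin overlapped, at 1.77 ± 0.124 and 1.77 ± 0.140. The part of these shifts in the results below was not tested.

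No member passed the test between KO and WT in any region. In limma's fit over all 8382 tested probe sets, with Benjamini-Hochberg adjustment and a threshold of 0.05, the members called were 0 of 42 in hippocampus, 0 of 42 in cerebellum and 0 of 42 in cortex. Over all probe sets the same rule called 0.119% in hippocampus, 0.0358% in cerebellum and 0.286% in cortex, so few calls were made anywhere. At an unadjusted p under 0.05, limma found 2 members in hippocampus against 8.41% of all probe sets, 6 in cerebellum against 12.1% and 8 in cortex against 10.2%. These are whole-tissue samples, in which fewer cells of a type and less RNA per cell cannot be told apart.

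Most initiation factor transcripts lay close to equality. The median log2 difference, KO minus WT, over the 42 probe sets was 0.05 in hippocampus, 0.02 in cerebellum and 0.05 in cortex, beside 0.02, 0.03 and 0.00 over all tested probe sets. In hippocampus 30 of 42 lay above 0 (54.6% of all probe sets did), in cerebellum 22 (55.6%) and in cortex 25 (50.5%). The 95% interval of the difference stayed within a log2 difference of 1 in either direction for 39 members in hippocampus, 38 in cerebellum and 37 in cortex, so a larger change of these transcripts lies outside their intervals. Smaller changes are within them, since a typical interval reached 0.34 to each side.

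**Figure D1:**
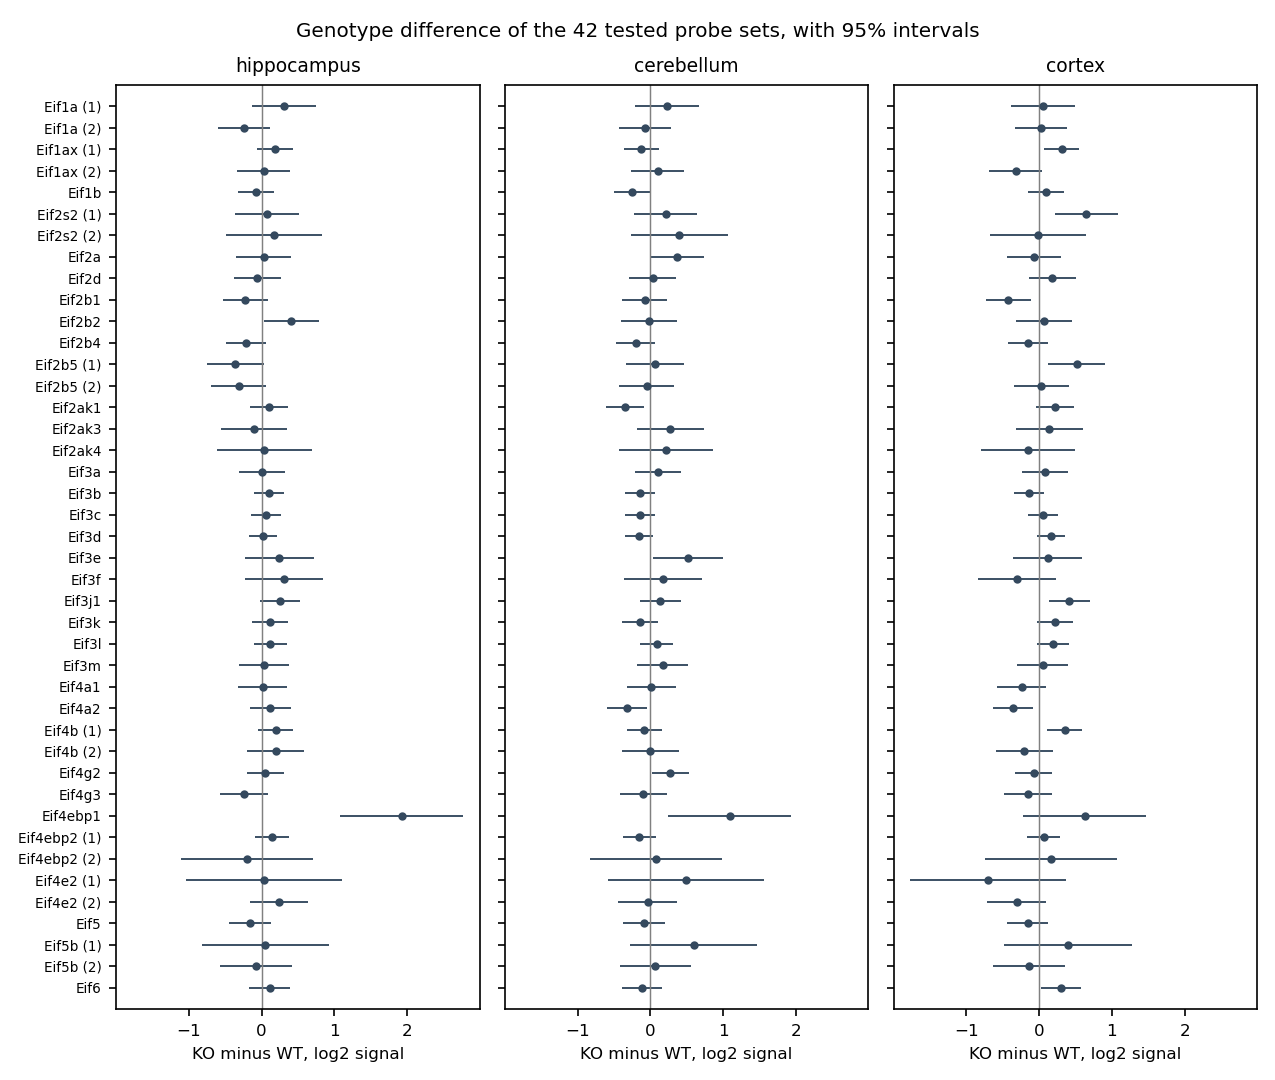
Log2 difference in signal between KO and WT (x axis) for each of the 42 tested probe sets (y axis, ordered by role) in hippocampus, cerebellum and cortex; points are limma estimates and bars their 95% intervals, with probe sets of one gene numbered in the order of their identifiers. Eif4ebp1 stands farthest to the right in hippocampus, at 1.92, and in cerebellum, at 1.09, while most other points lie near 0.

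Eif4ebp1, which encodes 4E-BP1, a repressor that binds eIF4E, had the widest gap between genotypes of all members. Its hippocampal signals were 53.3, 72.4 and 77.5 in KO and 26.1, 8.01 and 22.1 in WT. Every KO hippocampus lay above every WT hippocampus, and the lowest KO value was above the highest WT value of any region. In cortex the signals were 40.6, 63.8 and 56.7 in KO and 36.5, 27.4 and 40.2 in WT, again with every KO sample above every WT sample but with KO animal 3363 just above WT animal 3396. In cerebellum they were 37.7, 25.4 and 21.4 in KO and 3.42, 5.91 and 23.7 in WT, where WT animal 3396 lay above KO animal 3403, so the groups overlapped.

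The log2 difference of Eif4ebp1 was 1.92 ± 0.40 (SE) in hippocampus, a 3.80-fold higher signal in KO, with a 95% interval of 1.08 to 2.77 and an adjusted p of 0.0914 in limma. In cerebellum it was 1.09 ± 0.40 (adjusted p = 0.270) and in cortex 0.62 ± 0.40 (adjusted p = 0.632). None of the 3 regional differences passed the threshold. The mean over regions, taken as 1 value per animal, gave 1.21 ± 0.25 with an interval of 0.65 to 1.78 (adjusted p = 0.153). Without WT animal 3396 the hippocampal difference was 2.10 and the mean of the regions 1.46, and both passed, with adjusted p of 0.0391 and 0.0416. Under the other alternatives that tested it neither passed in limma, with adjusted p of 0.0647 to 0.375 in hippocampus and 0.0835 to 0.450 in the mean of the regions. The cerebellar difference depended on the treatment of low signals, at 1.80 with no floor and 0.77 with 16 added to each signal in place of the floor.

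The gene is dim in these arrays. It passed the brightness filter on 8 arrays, namely 3 of KO hippocampus, 1 of KO cerebellum, 3 of KO cortex and 1 of WT cortex, and so mostly through the KO samples. The 1 WT array alone would not have met the filter, which asks for 3, and with no filter the hippocampal difference had an adjusted p of 0.1895 in limma. The signals of 1 WT hippocampus and 2 WT cerebella were under the floor of 9.46 to which low values were raised, so the log2 differences of those samples were taken from the floor. Among WT regions its signal was highest in cortex, and among KO regions in hippocampus.

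**Figure D2:**
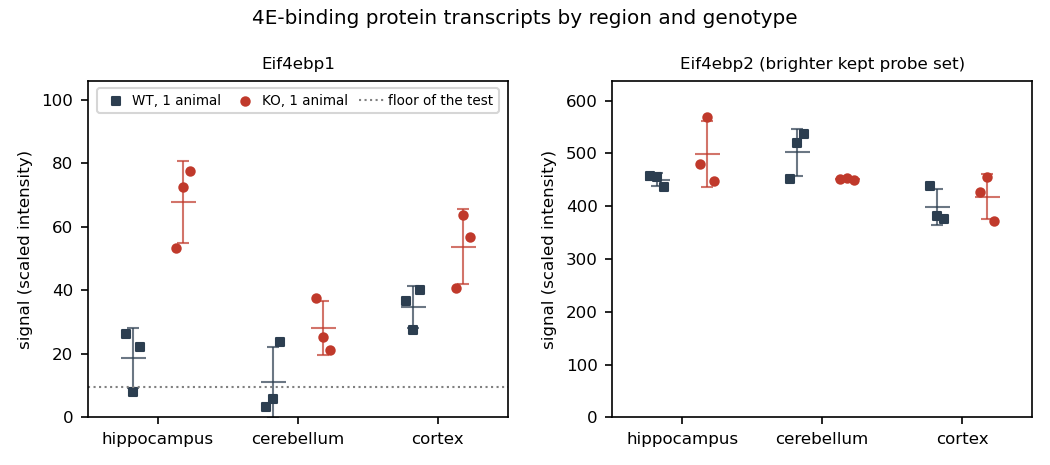
Signal (y axis, linear, scaled by the authors) of Eif4ebp1 and of the brighter probe set of Eif4ebp2 by region; squares are WT and circles KO animals, with bars for the mean and SD of 3 and cut off at 0, and the dotted line marks the floor of 9.46. For Eif4ebp1 the KO samples of hippocampus sit at 53.3 to 77.5 and those of WT at 8.01 to 26.1, while for Eif4ebp2 the genotypes lie at like levels.

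Eif4ebp2, which encodes the 4E-binding protein that prevails in neurons, showed no such gap. Its brighter probe set read 480.4, 568 and 448 in KO and 458, 456 and 436 in WT hippocampus. The groups overlapped there, and the log2 difference of 0.14 ± 0.11 had an interval of -0.09 to 0.37, which does not reach the lower bound of 1.08 for Eif4ebp1. In cerebellum the difference was -0.15 ± 0.11 and in cortex 0.07 ± 0.11. A dimmer probe set of the gene differed by -0.20 ± 0.43 in hippocampus, 0.08 ± 0.43 in cerebellum and 0.17 ± 0.43 in cortex, with wide errors and 1 KO cortex at 126 while the other KO cortices read 32.3 and 31.4.

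Of the cap-binding members, both Eif4e2 probe sets had overlapping groups in all 3 regions and Eif4e was too dim to be tested. Eif4e2 encodes 4EHP, a cap-binding protein that does not bind eIF4G and represses selected mRNAs. Its brighter probe set read 77.9, 90.5 and 64.7 in KO and 114, 89.4 and 84.5 in WT cortex, which overlapped, and differed by -0.31 ± 0.19 there, 0.24 ± 0.19 in hippocampus and -0.04 ± 0.19 in cerebellum. The dimmer Eif4e2 probe set differed by -0.70 ± 0.51 in cortex, 0.04 ± 0.51 in hippocampus and 0.49 ± 0.51 in cerebellum, with the largest errors of the list. Eif4e itself, the cap-binding subunit of eIF4F, had 2 probe sets, and neither was bright enough to be tested: the brighter read 15.6 to 44.9 over the 18 arrays and the other 2.60 to 25.7. Eif4enif1, which encodes the nuclear import carrier of eIF4E, read 2.44 to 17.0 and was not tested either.

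No tested eIF2 kinase passed between KO and WT, and only Eif2ak1 in cerebellum had groups that did not overlap. Eif2ak1 encodes HRI, the kinase that senses heme deficiency and mitochondrial stress. Its cerebellar signals were 149, 166 and 146 in KO and 186, 228 and 175 in WT. All KO cerebella lay below all WT cerebella, with a log2 difference of -0.35 ± 0.13 that did not pass (adjusted p = 0.267). In the other regions the difference had the opposite sign, 0.10 ± 0.13 in hippocampus and 0.22 ± 0.13 in cortex, where the groups overlapped, and the test of a genotype effect that differs between regions gave an adjusted p of 0.380.

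Eif2ak3 encodes PERK, the kinase of the endoplasmic reticulum, and its differences were -0.10 ± 0.22 in hippocampus, 0.27 ± 0.22 in cerebellum and 0.14 ± 0.22 in cortex. Eif2ak4 encodes GCN2, which senses uncharged tRNA when amino acids run short, and its differences were 0.03 ± 0.31, 0.22 ± 0.31 and -0.15 ± 0.31 in the same order. The groups overlapped for both genes in every region. Eif2ak2, for the RNA-activated kinase PKR, was too dim to be tested and read 26.2, 28.9 and 22.1 in KO and 21.2, 20.1 and 17.8 in WT hippocampus, where every KO value was above every WT value, but all 18 signals lay under their array's filter.

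**Figure D3:**
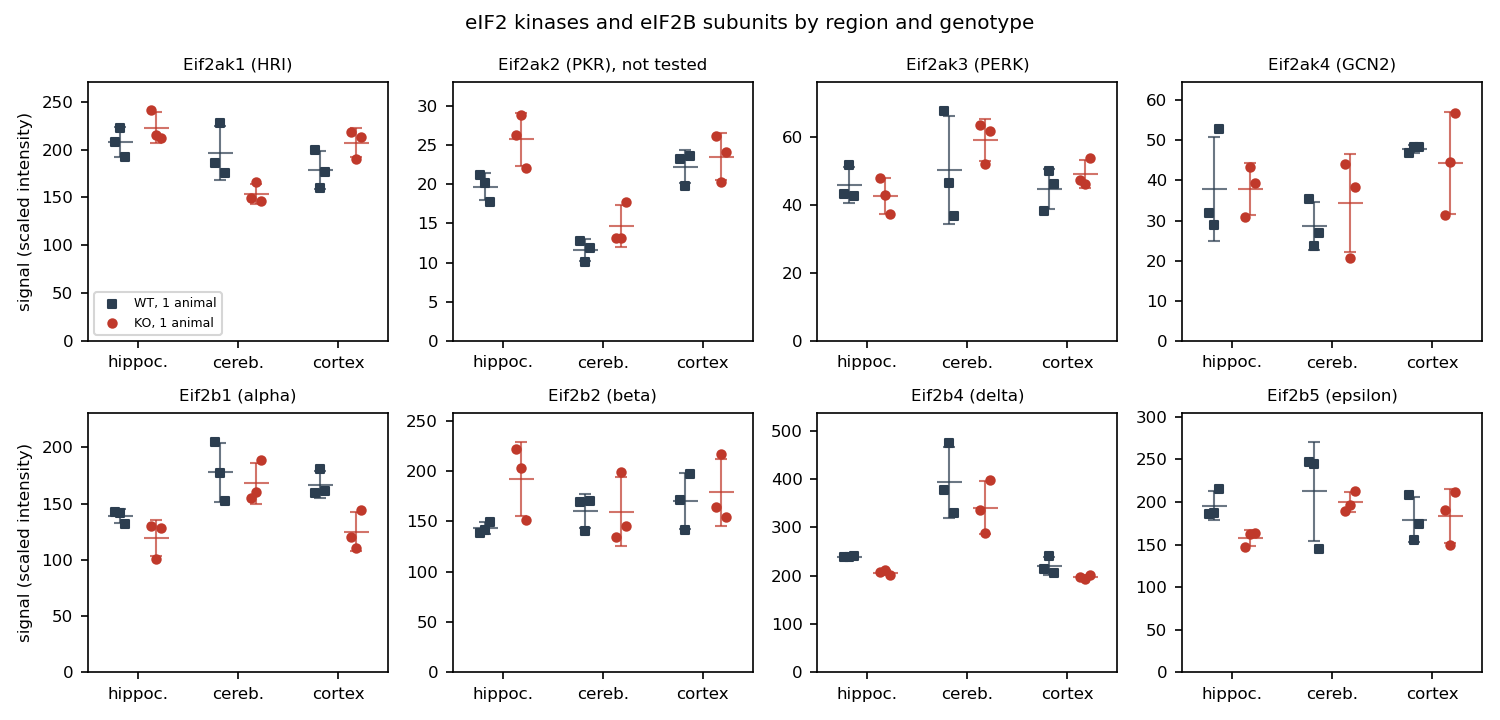
Signal (y axes, linear, scaled by the authors, each starting at 0) of the eIF2 kinase genes and of 4 eIF2B subunit genes by region; squares are WT and circles KO animals, and bars give the mean and SD of 3. KO cerebella lie below WT cerebella for Eif2ak1 (146 to 166 against 175 to 228), and KO hippocampi below WT hippocampi for Eif2b1, Eif2b4 and the Eif2b5 probe set drawn, the second in the text.

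eIF2B, the exchange factor that the kinases act on, was represented by 5 tested probe sets of 4 genes, 2 of them of Eif2b5. In hippocampus 4 had negative differences, with Eif2b2 the exception, and the median was -0.22. The number above 0 was 1 in hippocampus, 1 in cerebellum and 3 in cortex, against 54.6%, 55.6% and 50.5% of all probe sets. In hippocampus only Eif2b2, which was higher in KO, had an unadjusted p under 0.05 in limma. Eif2b4, the delta subunit, read 208, 211 and 201 in KO and 239.8, 238 and 240.1 in WT hippocampus, narrow groups that did not overlap. Its difference was -0.21 ± 0.13 in hippocampus, -0.20 ± 0.13 in cerebellum, where the groups overlapped, and -0.15 ± 0.13 in cortex, where they did not.

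Eif2b1 encodes the alpha subunit, one of the subunits that contact phosphorylated eIF2. Its cortical signals were 120.4, 111 and 144 in KO and 159, 181 and 161 in WT. Again every KO cortex lay below every WT cortex, with a difference of -0.42 ± 0.15 that did not pass (adjusted p = 0.291). In hippocampus it was -0.22 ± 0.15, without overlap, and in cerebellum -0.08 ± 0.15, with overlap.

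Eif2b5, the catalytic epsilon subunit, had 2 tested probe sets. The first read 63.8, 69.8 and 83.7 in KO and 93.0, 82.8 and 102 in WT hippocampus, with a slight overlap and a difference of -0.36 ± 0.19, and in cortex it read 76.9, 94.2 and 91.7 in KO and 66.4, 53.6 and 63.9 in WT, with 0.52 ± 0.19. The cortical groups did not overlap and lay in the other direction from hippocampus. The second probe set differed by -0.31 ± 0.18 in hippocampus, with no overlap, and by 0.03 ± 0.18 in cortex, so the 2 probe sets shared the hippocampal sign and differed in size in cortex. Eif2b2, the beta subunit, was the exception: its hippocampal signals of 222, 203 and 151 in KO lay above 139, 141 and 149.8 in WT, with a difference of 0.41 ± 0.18 (adjusted p = 0.574) and the lowest KO and highest WT values only just apart. Its differences were -0.02 ± 0.18 in cerebellum and 0.07 ± 0.18 in cortex.

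eIF2 itself was represented by Eif2s2, the beta subunit, through 2 probe sets; the alpha subunit Eif2s1, on which the kinases act, was not analysed here. In cortex the brighter probe set read 65.8, 99.1 and 102 in KO and 52.9, 47.2 and 69.1 in WT. KO animal 3363, at 65.8, lay within the WT range and the other KO animals lay above it, for a difference of 0.65 ± 0.21 (adjusted p = 0.255). The dimmer probe set differed by -0.01 ± 0.32 in cortex, so the genotype difference was not shared by both. Eif2a, a separate factor that can deliver the initiator tRNA without eIF2, read 95.03, 101 and 106 in KO and 90.3, 73.9 and 71.1 in WT cerebellum, groups that did not overlap, and differed by 0.36 ± 0.18 there. Eif2d, which can also place tRNA at a start codon, differed by -0.06 in hippocampus, 0.03 in cerebellum and 0.18 in cortex.

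The subunits of eIF3, the large scaffold that holds the small ribosomal subunit open for mRNA, all had positive differences in hippocampus. The 10 tested probe sets of 10 genes ranged from 0.01 to 0.31 there, with a median of 0.11 beside 0.02 for all probe sets, and none had an unadjusted p under 0.05. In cerebellum 6 of 10 and in cortex 8 of 10 lay above 0, with medians of 0.09 and 0.10. Eif3j1, a loosely bound subunit at the mRNA entry channel, read 481, 477 and 544 in KO and 337, 396 and 393 in WT cortex. Those groups did not overlap, and the difference of 0.42 ± 0.13 did not pass (adjusted p = 0.255). It was 0.25 ± 0.13 in hippocampus, 0.14 ± 0.13 in cerebellum and 0.27 ± 0.10 in the mean of the regions (adjusted p = 0.404).

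Eif3k and Eif3l, which sit next to each other in the complex, also had every KO cortex above every WT cortex. Eif3k read 814, 744 and 808 in KO and 672, 656 and 702 in WT, and Eif3l read 629, 594 and 648 and 554, 522 and 563. Their differences were 0.22 ± 0.12 and 0.19 ± 0.11, and in hippocampus 0.11 ± 0.12 and 0.12 ± 0.11. Eif3e read 152, 157 and 121 in KO and 111, 87.3 and 102 in WT cerebellum, without overlap, and differed by 0.52 ± 0.23 (adjusted p = 0.366). Eif3m, a further subunit, also had all KO cerebella above all WT cerebella, with 0.17 ± 0.17. Eif3b, a core subunit, and Eif3d, a subunit at the edge of the complex, lay the other way in cerebellum, where every KO value was below every WT value, with -0.14 ± 0.10 and -0.16 ± 0.09. The remaining tested subunits, Eif3a, Eif3c and Eif3f, had overlapping groups in all 3 regions. For Eif3f the differences were 0.31 ± 0.26 in hippocampus, 0.17 ± 0.26 in cerebellum and -0.30 ± 0.26 in cortex.

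Among the eIF4F subunits and their helpers, Eif4a2 and Eif4b stood out. Eif4a2 encodes the form of the eIF4A helicase that is abundant in brain. Its cerebellar signals were 1572, 1581 and 1696 in KO and 1856, 2466 and 1804 in WT, and its cortical signals 2014, 1679 and 1830.0 and 1958, 2452 and 2710.0. KO lay wholly below WT in cerebellum, and in cortex WT animal 3405 overlapped with the KO range. The differences were -0.32 ± 0.13 in cerebellum (adjusted p = 0.327), -0.36 ± 0.13 in cortex and 0.12 ± 0.13 in hippocampus. Eif4a1, the form found in most tissues, differed by 0.02 ± 0.16, 0.01 ± 0.16 and -0.24 ± 0.16 in hippocampus, cerebellum and cortex.

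Eif4b, a cofactor that speeds the helicase, read 469, 455 and 420.3 in KO and 353, 356 and 343 in WT cortex on its brighter probe set. Those groups did not overlap, with a difference of 0.35 ± 0.12 (adjusted p = 0.269), but its second tested probe set differed by -0.20 ± 0.19 in the same region. Of the scaffolds, Eif4g3 read 352, 403 and 398 in KO and 483, 456 and 426 in WT hippocampus, with KO wholly below WT and a difference of -0.24 ± 0.16. Eif4g2, a scaffold without an eIF4E site, read 247, 236 and 277 in KO and 229, 180.0 and 220.1 in WT cerebellum, with KO wholly above WT and 0.28 ± 0.12. Eif4h, another helicase cofactor, read 2.94 to 17.99 and was not tested.

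The factors of start codon choice and of subunit joining had few separations. Eif1ax, which encodes eIF1A, read 327, 286 and 279.7 in KO and 261, 260.5 and 264 in WT hippocampus, and 294, 307 and 371 and 252, 259 and 271 in cortex. KO lay wholly above WT in both regions, with differences of 0.18 ± 0.12 and 0.31 ± 0.12, but its second probe set differed by 0.03 ± 0.17 and -0.32 ± 0.17. The paralog Eif1a differed by 0.31 ± 0.21 and -0.24 ± 0.17 in hippocampus on its 2 probe sets, and Eif1b, a close relative of the start codon gatekeeper eIF1, by -0.25 ± 0.12 in cerebellum. Eif5, the GTPase activator that acts on eIF2 at the start codon, read 337, 328 and 342 in KO and 383, 374 and 369 in WT hippocampus, with KO wholly below WT and -0.16 ± 0.14. Eif5b, which joins the ribosomal subunits, had overlapping groups in all 3 regions on both probe sets. Eif6, which keeps the subunits apart until the large one is mature, differed by 0.30 ± 0.13 in cortex, where 1 KO value lay among those of WT.

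Counts of members whose KO and WT groups did not overlap were near the background in most cases. In hippocampus 3 members lay wholly higher, against 10.4% of all probe sets, and 5 wholly lower, against 6.94%. In cerebellum 4 lay wholly higher (7.53%) and 4 wholly lower (7.8%), and in cortex 7 wholly higher (7.05%) and 2 wholly lower (7.18%). The 7 in cortex were 16.7% of the 42 members. Eif4ebp1 and 1 Eif1ax probe set lay wholly higher in both hippocampus and cortex, as did 1.06% of all probe sets, and Eif2b1 and Eif2b4 wholly lower in both, as did 0.787%.

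Over the mean of the regions, limma called 0 of 42 members, against 0.179% of all probe sets, and 6 had an unadjusted p under 0.05, against 10.1%. After Eif4ebp1, the lowest p belonged to Eif3j1, to the brighter Eif2s2 probe set at 0.31 ± 0.12 (adjusted p = 0.420) and to Eif4a2 at -0.19 ± 0.07 (adjusted p = 0.420). The genotype effect was not found to differ between regions for any member: the interaction called 0 of 42, against 0.0477% of all probe sets, with 5 members at an unadjusted p under 0.05 against 10.7%. The members of lowest interaction p were Eif2b5 (adjusted p = 0.361), Eif2ak1 (0.380), Eif4b (0.404) and Eif4a2 (0.428). For Eif4ebp1 it was 0.481, so its larger difference in hippocampus than in cortex was not shown to be a difference between regions.

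Brain region separated more of these transcripts than genotype did. Among WT regions 10 of 42 members differed (limma's F test, blocked on the animal), which is 23.8% against 39.4% of all tested probe sets. Highest in cerebellum were Eif2b4, Eif6, Eif3d and 1 probe set of Eif2b5; highest in cortex were both Eif4e2 probe sets, 1 of Eif2s2 and Eif4ebp1; highest in hippocampus were 1 probe set each of Eif1a and Eif4b. The members of highest p were Eif3a (adjusted p = 0.982), Eif3m (0.963) and Eif2ak3 (0.899), with Eif3a at 180.1 ± 15.0 in hippocampus, 184 ± 27.4 in cerebellum and 180.4 ± 24.9 in cortex (SD, n = 3).

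Eif2b4 had the lowest p among WT regions (adjusted p = 0.00120). Its WT signals were 239.8, 238 and 240.1 in hippocampus, 377, 474 and 330.0 in cerebellum and 213, 241 and 206 in cortex. Cerebellum lay wholly above the other 2 regions, with a log2 difference of -0.70 ± 0.13 for hippocampus minus cerebellum and -0.83 ± 0.13 for cortex minus cerebellum, and hippocampus and cortex did not differ past the test (adjusted p = 0.590). KO animals gave -0.71 ± 0.12 and -0.77 ± 0.12 for the same contrasts.

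Eif6 followed the same order (adjusted p = 0.00136). Its WT signals were 367, 365 and 299.7 in cerebellum, 229, 222 and 258 in hippocampus and 194, 169.7 and 185 in cortex, with no overlap between cerebellum and cortex or cerebellum and hippocampus. The contrasts with cerebellum were -0.54 ± 0.14 for hippocampus and -0.91 ± 0.14 for cortex. Eif3d, the eIF3 subunit that can bind the cap of some mRNAs, read 469.5, 441 and 429 in WT cerebellum, 369, 353 and 314 in cortex and 297, 322 and 294 in hippocampus, and every WT cerebellum was above every other WT sample. Its contrasts with cerebellum were -0.55 ± 0.11 for hippocampus and -0.37 ± 0.11 for cortex. In KO they were -0.37 ± 0.09 and -0.04 ± 0.09, and the KO cerebella and cortices overlapped. For Eif2b5 only cortex against cerebellum passed, at -0.87 ± 0.21, and its second probe set did not pass (adjusted p over regions of 0.641). With no filter the first probe set had an adjusted p of 0.0871 in limma's F test over WT regions and did not pass.

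Of these 4 genes with the highest WT signal in cerebellum, 3 have an entry in the RefSeq promoter table (GRCm38.p6), and their windows are shown because they share that highest region: 250 bases before the annotated start, with motif letters in capitals.
Eif2b4, chr5:31193140-31193389, minus strand: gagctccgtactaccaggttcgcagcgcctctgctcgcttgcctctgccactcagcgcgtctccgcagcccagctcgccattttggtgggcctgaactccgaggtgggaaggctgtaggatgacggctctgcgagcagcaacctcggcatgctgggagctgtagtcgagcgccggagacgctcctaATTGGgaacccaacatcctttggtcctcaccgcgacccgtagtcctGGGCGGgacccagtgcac
Eif2b5, chr16:20498567-20498816, plus strand: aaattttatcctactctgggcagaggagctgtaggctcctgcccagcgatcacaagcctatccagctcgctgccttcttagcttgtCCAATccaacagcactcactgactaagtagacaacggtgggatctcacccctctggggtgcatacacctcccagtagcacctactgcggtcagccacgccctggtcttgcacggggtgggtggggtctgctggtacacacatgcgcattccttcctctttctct
Eif3d, chr15:77970825-77971074, minus strand: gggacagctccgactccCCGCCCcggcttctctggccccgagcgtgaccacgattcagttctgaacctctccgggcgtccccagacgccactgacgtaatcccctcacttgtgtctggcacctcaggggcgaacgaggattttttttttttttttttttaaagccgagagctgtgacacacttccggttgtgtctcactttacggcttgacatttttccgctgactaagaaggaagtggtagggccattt
The motifs searched on both strands were the NF-Y box CCAAT, the GC box GGGCGG, the E-box CACGTG and TGATGNAA, a composite site of ATF4 and C/EBP; none of these letters overlap in the windows shown. Eif2b4 held CCAAT at 60 to 64 and GGGCGG at 13 to 18 bases before the start, Eif2b5 held CCAAT at 160 to 164, and Eif3d held GGGCGG at 228 to 233. No motif was common to all 3 windows.

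Promoter windows were found for 34 of the 39 member genes, 47 windows in all. Entries for Eif1a, Eif3e, Eif4ebp1, Eif4g2 and Eif6 were missing. GGGCGG stood in 30 of the 47 (63.8%) and in 32.7% of all 32841 windows of the same length, CACGTG in 9 (19.1%) against 6.02%, and CCAAT in 12 (25.5%) against 33.9%. TGATGNAA stood in 0 of 47 against 3.45%. A C followed by 4 pyrimidines at the annotated start, the pattern of mRNAs whose translation follows mTORC1, was found in 1 of the 47 windows against 2.5% of all. These are letter matches in annotated windows, several of which belong to one gene, and say nothing about binding.

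Both Eif4e2 probe sets were highest in WT cortex. The brighter read 114, 89.4 and 84.5 there, 67.4, 56.2 and 48.4 in hippocampus and 58.6, 61.4 and 62.8 in cerebellum, with cortex wholly above both. Cortex minus cerebellum was 0.65 ± 0.19 on this probe set and 1.80 ± 0.37 on the dimmer one. The dimmer one passed the brightness filter on 8 arrays. Among WT these were 3 of cortex, 1 of hippocampus and 0 of cerebellum, so mostly the region where it was highest. With no filter its limma F test over WT regions had an adjusted p of 0.0763 and did not pass. Hippocampus minus cortex passed on the brighter one alone, at -0.75 ± 0.19. Eif4ebp1 in WT was also higher in cortex than in cerebellum, at 1.41 ± 0.40 (adjusted p = 0.0198), with 2 of the 3 cerebella at the floor. The dimmer Eif2s2 probe set was lower in WT hippocampus, at 22.4, 11.4 and 23.7, than in cerebellum, at 42.8, 36.0 and 42.8, and in cortex, at 34.5, 43.7 and 47.4. It was under the filter in all 6 hippocampi, and the brighter Eif2s2 probe set did not show the difference, with 0.27 ± 0.24 for hippocampus minus cerebellum against -1.15 ± 0.31. With no filter the dimmer one did not pass limma's F test over WT regions (adjusted p = 0.0666). Nor did its contrasts of hippocampus with cerebellum and with cortex pass then (adjusted p = 0.0669 and 0.108).

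Hippocampus was highest for 1 probe set each of Eif1a and Eif4b. Eif1a read 180.4, 220.3 and 183 in WT hippocampus and 126, 126 and 111 in cerebellum, which did not overlap, for a difference of 0.69 ± 0.14. Its second probe set had 0.46 ± 0.21, which did not pass. Eif4b read 445, 485 and 526 in hippocampus and 353, 356 and 343 in cortex, with hippocampus minus cortex at 0.47 ± 0.11. Its second tested probe set did not show this, with 0.06 ± 0.16 for the same contrast (adjusted p = 0.857 in limma). On that probe set hippocampus minus cerebellum was -0.03 ± 0.16. A further member, Eif3f, passed in a single contrast, cortex minus cerebellum at 0.89 ± 0.28 (adjusted p = 0.0298), but not in the test over the 3 regions. Eif3f passed the brightness filter on 11 arrays. Among WT these were 3 of cortex, 2 of hippocampus and 1 of cerebellum, so most often in the region where it was highest.

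**Figure D4:**
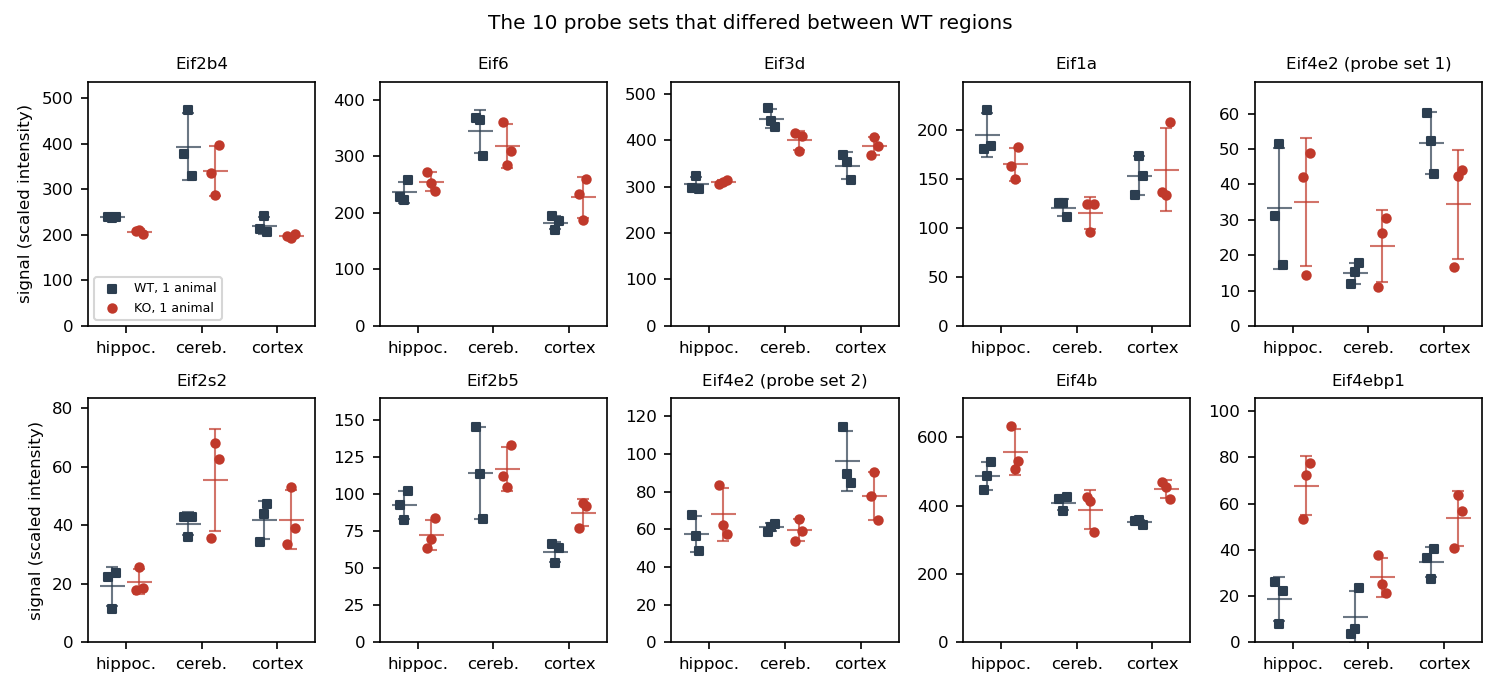
Signal (y axes, linear, scaled by the authors, each starting at 0) by region for the 10 probe sets that differed between WT regions, in order of p; squares are WT and circles KO animals, with bars for the mean and SD of 3, cut off at 0. Eif2b4 and Eif6 sit highest in cerebellum in both genotypes. Eif3d does so in WT, while its KO cerebella and KO cortices overlap. Eif4e2 sits highest in WT cortex.

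Between pairs of WT regions, hippocampus minus cerebellum called 1 member higher (13.5% of all probe sets) and 4 lower (12.4%). Cortex minus cerebellum called 4 higher (20.6%) and 4 lower (16.5%), and hippocampus minus cortex 1 higher (5.42%) and 2 lower (4.68%).

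Among KO regions 16 of 42 members differed, which is 38.1% against 49.8% of all probe sets. Of the 10 WT calls, 8 were among them: 1 probe set each of Eif1a, Eif2b5, Eif2s2 and Eif4b, and those of Eif2b4, Eif3d, Eif4ebp1 and Eif6, or 19% against 30.7% of all probe sets called in both genotypes. The 8 called in KO alone were Eif4a2, Eif2ak1, Eif1b, Eif3b, Eif4g2, Eif2b1, the second Eif1a and the second Eif4b probe set, and the 2 called in WT alone were those of Eif4e2. A call in 1 genotype only is not a difference between genotypes, and no member passed that test, the interaction given above.

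The highest of the 3 regions was more often hippocampus in KO than in WT, among the members and over all probe sets. The highest fitted mean was in hippocampus for 23 of 42 members in KO and 13 in WT (34.8% and 27.2% of all probe sets), in cerebellum for 13 and 18 (35.9% and 34.9%), and in cortex for 6 and 11 (29.2% and 37.8%). The same region was highest in both genotypes for 27 members, against 66.7% of all probe sets. Of the 42 members, 9 differed among KO regions and were highest in hippocampus, against 15.6% of all probe sets, 7 were so in cerebellum, against 20.5%, and 0 in cortex, against 13.8%. Eif4a2 had the lowest p in KO (adjusted p = 0.000588), with means of 2418 ± 124 in hippocampus, 1616 ± 69.3 in cerebellum and 1841 ± 168 in cortex (SD, n = 3), against 2239 ± 306, 2042 ± 368 and 2374 ± 382 in WT, where the regions overlapped. Hippocampus minus cerebellum was 0.58 ± 0.08 in KO and 0.14 ± 0.15 in WT. For Eif2ak1 the same contrast was 0.53 ± 0.12 in KO and 0.09 ± 0.15 in WT, for Eif4g2 -0.57 ± 0.11 and -0.34 ± 0.14, and for Eif4ebp1 1.29 ± 0.29 and 0.45 ± 0.40. For Eif4ebp1 the WT value rests on the floor, to which 2 WT cerebella and 1 WT hippocampus were raised: without the floor it was 1.09, and no KO array was under the floor.

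Regional differences had the same sign in the 2 genotypes for most members, with lower correlations than over all probe sets in each contrast. Across the 42 probe sets, which are not independent and share the arrays' scaling, hippocampus minus cerebellum in WT and in KO had the same sign for 33 and a Pearson correlation of 0.82, beside 81.4% and 0.879 over all probe sets. For cortex minus cerebellum these were 28 and 0.734, beside 80.7% and 0.868. For hippocampus minus cortex they were 30 and 0.456, beside 70.5% and 0.656.

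**Figure D5:**
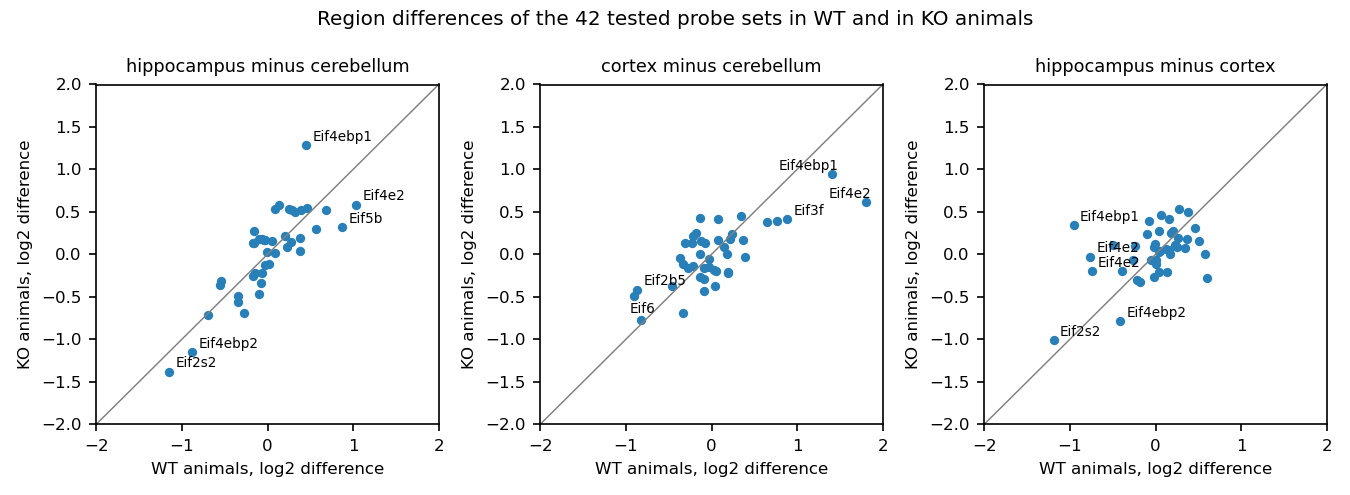
Log2 difference between 2 regions in WT (x axis) and in KO animals (y axis) for the 42 tested probe sets, with the line of equality and the 5 probe sets of largest difference in either genotype named in each panel. Points follow the line most closely for hippocampus minus cerebellum; Eif4ebp1 lies above it there, at 0.45 in WT and 1.29 in KO. The WT value was 1.09 without the floor on low signals.

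Probe sets of one gene often disagreed on genotype in the 8 genes with 2 tested probe sets. The sign of the KO minus WT difference was shared in 5 of 8 genes in hippocampus, 3 in cerebellum and 4 in cortex. In cortex the pairs differed for Eif1ax, at 0.31 ± 0.12 and -0.32 ± 0.17, for Eif2s2, at 0.65 ± 0.21 and -0.01 ± 0.32, and for Eif4b and Eif5b. For Eif2b5 in hippocampus and Eif4e2 in cortex both probe sets lay on the same side.

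The 13 members too dim to be tested were 1 probe set each of Eif2ak2, Eif2d, Eif3b, Eif3e, Eif3l, Eif4ebp2, Eif4enif1, Eif4h and Eif5a and 2 each of Eif4b and Eif4e. For Eif2d, Eif3b, Eif3e, Eif3l, Eif4b and Eif4ebp2 another probe set was tested. Eif5a, the hypusinated factor of translation elongation and termination, read 8.47 to 33.4 over the 18 arrays. The Eif2d probe set read 3.89 to 29.6, and the second Eif4b one, all 18 of whose values were under the floor, 1.37 to 6.80.

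Genes that act next to the members were taken from 4 lists. Of 22 tested genes of signalling to initiation (mTORC1, MNK, eIF2 phosphatase and mRNA-binding regulators), limma called 0 in each region. In hippocampus, cerebellum and cortex 8, 11 and 10 lay above 0, against 54.6%, 55.6% and 50.5% of all probe sets. In the same order 2, 3 and 3 had an unadjusted p under 0.05, against 8.41%, 12.1% and 10.2%. Ddit4, an mTORC1 inhibitor induced by stress, read 383 ± 44.0 in KO and 524 ± 73.0 in WT in hippocampus and 244 ± 56.7 in KO and 337 ± 10.5 in WT in cortex, with differences of -0.45 and -0.49 that did not pass (adjusted p = 0.450 and 0.255). Every KO value of Ddit4 lay below every WT value in both regions. Ddit4 was counted in this list and not among the ATF4 targets below. Mknk2, an eIF4E kinase, had -0.53 in cerebellum and Mknk1, its relative, 0.79 in cortex (adjusted p = 0.244 and 0.459), and the mTORC1 regulators Tsc2 in hippocampus and Akt1 in cerebellum had 0.34 and -0.43 (0.574 and 0.232).

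Elongation and termination factors, 13 genes, also had 0 calls by limma in each region. At an unadjusted p under 0.05 there were 0 in hippocampus, 4 in cerebellum and 2 in cortex, against 8.41%, 12.1% and 10.2% of all probe sets. In hippocampus 11 of 13 lay below 0, with a median of -0.13 beside 0.02 for all probe sets. Eef1a2, the elongation factor of neurons and muscle, had -0.35 ± 0.13 in cerebellum (adjusted p = 0.277). In cortex Eef1b2 had the lowest p, at -1.34 ± 0.46 (adjusted p = 0.291 in limma). Its signals overlapped, at 20.14 to 74.65 in KO and 63.65 to 129.8 in WT. Tpt1, a growth-related protein that binds elongation factors, had -0.33 ± 0.12 in cortex (adjusted p = 0.297). In hippocampus Dohh had -0.24 and Eef1d 0.21 (adjusted p = 0.675 for each). Dohh, which completes the hypusine of eIF5A, had -0.37 ± 0.14 in cerebellum (adjusted p = 0.270).

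Targets of ATF4, the transcription factor whose translation rises when eIF2 is phosphorylated, were the only list with calls. Of 26 tested genes limma called 3 higher in KO hippocampus, Atf5, Nupr1 and Slc3a2, against 0.119% of all probe sets in either direction. There 22 lay above 0, with a median of 0.22. In cortex limma called 1 higher, Atf5, against 0.286%, and 16 lay above 0, with a median of 0.14. In cerebellum limma called 0, against 0.0358%, and 18 lay above 0, with a median of 0.15. The shares of all probe sets above 0 were 54.6%, 50.5% and 55.6% in hippocampus, cortex and cerebellum. At an unadjusted p under 0.05, 12 genes were higher and 1 lower in hippocampus, 10 higher and 1 lower in cortex and 4 higher and 0 lower in cerebellum, against 8.41%, 10.2% and 12.1% of all probe sets in either direction. Atf5, a transcription factor of the same family, read 302 ± 113 in KO and 54.9 ± 7.09 in WT in hippocampus and 165 ± 52.6 in KO and 39.6 ± 5.24 in WT in cortex. Whether the signals of Atf5 and Eif4ebp1 went together across animals was not tested. As background, Eif4ebp1 is itself known as an ATF4 target. This list and its rise were known from earlier results of these arrays and are no independent support. The list for the unfolded protein response of the endoplasmic reticulum, 14 genes, had 0 calls by limma in each region. In hippocampus, cerebellum and cortex 2, 2 and 1 had an unadjusted p under 0.05, against 8.41%, 12.1% and 10.2% of all probe sets. In the same order 3, 9 and 5 genes lay above 0, against 54.6%, 55.6% and 50.5%. Hspa5, the main chaperone of that compartment, read 1014 ± 120.3 in KO and 1291 ± 124 in WT in cortex, a difference of -0.35 ± 0.17 (adjusted p = 0.496). The other genes of lowest p lay in both directions. In hippocampus they were Canx at 0.44 and Manf at -0.31 (adjusted p = 0.566 and 0.590 in limma). Dnajb9 had 0.51 and Hsp90b1 -0.34 in cerebellum (0.274 and 0.287), and Dnajb11 had -0.42 in cortex (0.483).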

How the data were processed

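RNA from 3 brain regions of 3 KO and 3 WT mice was measured on 18 arrays. Before they deposited them, the authors turned the probe signals into 1 linear intensity per probe set and array and scaled each array to the same level: the 2% trimmed mean is 150.07 to 150.08 in the deposited table. Which software they used is not given in these sources. The region was read from the title and description, since the source label reads hippocampus on all 18. Gene names came from the platform annotation, and all 55 members were matched to RefSeq by gene ID.

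From the intensities, 66 control probe sets were removed. A floor of 9.46, the 20th percentile of the whole table, replaced lower values before log2. Probe sets above their array's 40th percentile (29.6 to 39.9) on at least 3 of 18 arrays were kept, which gave 8382. KO and WT were compared with limma 3.58.1 (R 4.3.3) in 6 group means over 18 arrays (12 residual degrees of freedom, intensity trend), the mean of the regions on 1 value per animal, and the interaction and the regions by F tests with the animal as a fixed block. All tests were two-sided, with Benjamini-Hochberg adjustment over the 8382. With 3 animals against 3, an exact permutation test cannot go below 0.1. The number of arrays limits the precision. The fits were tested on simulated data.

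Arrays of 1 animal deviated together only weakly: the residual correlation had a median of 0.135 (-0.0836 to 0.195) within animals and -0.0179 between them. Regions of an animal are paired by its number in the labels. The members and lists were chosen with earlier results of these data known. Genes named were, for each KO and WT comparison and the interaction, those past the threshold, filled to 4 by lowest p, and for WT regions the 10 of lowest and 3 of highest p. All kinases, 4E-binding proteins, eIF4E, eIF4A and eIF2B genes were described whatever their values, and other members that were singled out for groups that did not overlap were chosen after their values were seen. The first listed promoter window of a gene was shown.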

Additional observations from a re-analysis of the deposited data

How the results depend on the processing

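Floor, filter, normalization, intensity trend, replicate block, arrays fitted and animals left out were varied one at a time. The number of members called between KO and WT was 0 to 1 in hippocampus and in the mean of the regions, with Eif4ebp1 called in each without WT animal 3396 alone, and stayed at 0 in cerebellum, cortex and the interaction. Over these alternatives the hippocampal difference of Eif4ebp1 was 1.30 to 2.20 with adjusted p of 0.0391 to 0.375; the 60th percentile filter left it untested. With the animal as a replicate block, 0 members were called in each region, and Eif4ebp1 in hippocampus had an adjusted p of 0.0813; the block changed no call.

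The WT regional counts depended more on the settings. Members that differed over the 3 regions numbered 10, and 6 under the 60th percentile filter, 7 with no filter, 12 with median scaling, 9 with no replicate block and 2 to 7 with 1 animal left out (2 without 3406, 4 without 3396). Hippocampus minus cerebellum called 5, and 7 with median scaling and 1 to 5 with 1 animal left out (1 without 3406). Cortex minus cerebellum called 8, and 5 with the 60th percentile filter, 5 with quantile normalization, 12 with median scaling and 3 to 8 with 1 animal left out (5 without 3405, 3 without 3406). Hippocampus minus cortex called 3, and 0 with no filter, 1 with the 60th percentile filter and 0 without any 1 of the WT animals. Eif2b4 and Eif6 passed the test over WT regions under all 11 alternatives, and Eif4ebp1 lost it in 7 of 10. Differences near 0 turned: the dimmer Eif2s2 probe set in cortex minus cerebellum, 0.04, became -0.20 with quantile normalization and -0.14 with median scaling, and was -0.085 to 0.21 with 1 animal left out; in hippocampus minus cerebellum, Eif4ebp1, 0.45, was -0.052 to 0.74 and the brighter Eif4e2 probe set, -0.10, was -0.25 to 0.037 with 1 animal left out. The cause was not tested, beyond fewer samples or probe sets in the fit. Dim members limit what can be read: 13 of 55 were never tested, and 8 of the 42 tested passed the filter on fewer than 18 arrays.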
